A study of Mus musculus with 30 samples.

Results

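The collagen genes of isolated fast muscle fibres were described here by every array probe, controls aside, whose deposited gene name has the form Col, a number, the letter a and a number. The rule took 41 of 35527 gene names, on 14 chromosomes and with 63 of 55681 probes, and did not use any measured value. It left out Col4a3bp, whose name continues beyond that form, and the collagens that the files list under other names (Col6a5 as Gm7455 and Col26a1 as Emid2); no probe carried the name Col6a3. Each of 30 arrays held the amplified RNA of 1 fibre from the fast extensor digitorum longus muscle of the lower leg of male CD1 mice injected at 8 weeks of age or left uninjected. MCU, the pore of the mitochondrial calcium uniporter, had been raised or silenced in the injected muscles with adeno-associated virus (AAV).

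The groups were fibres of muscles given AAVMCU (4 at 14 days and 3 at 7 days after injection), set against wild type fibres with no virus (4 at each day), and fibres of muscles given AAVshMCU (4 at 14 days and 3 at 7 days), set against fibres labelled AAVshLuc (4 at each day). They are called MCU, WT, shMCU and shLuc below. The titles name the shLuc virus for a hairpin against luciferase, whereas another label describes virus without a cloned insert, and the sources do not settle which it was. All fibres had been freed with type I collagenase, picked by eye and rinsed, and those of injected muscles also carried the green marker ZsGreen. MCU and shMCU fibres had further been preselected by a PCR of MCU, so the change of Mcu is no independent check of the groups. The animals are not named, so fibres of a group may share an animal, and p-values measure the spread between fibres.

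Collagens are built from 3 chains wound into a helix in which glycine recurs at every 3 residues. In muscle, fibroblasts make most of the fibrillar types I and III, which form the endomysium and perimysium around the fibres, while type IV forms the network of the basement membrane and type VI the beaded filaments beside it. Smaller types attach to fibrils (FACIT collagens) or span the cell membrane, and some of these are made by the muscle fibre itself, such as type XXII at the muscle-tendon junction and type XXV, which motor nerves need to reach muscle in the mouse. A fibre stripped with collagenase keeps its own transcripts, and any cell that still adheres adds its transcripts to the same array. Fewer adhering cells and less RNA per cell cannot be told apart in such samples.

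The repeat could be read in some of the probes. A run of at least 4 glycine codons (GGN), each 3 codons after the last, was in frame in 4 of 63 collagen probes (6.35%), against 29 of 55602 different probe sequences of 60 bases (0.0522%), and these 4 are shown because they carry the repeat of the helix. Each is printed 5′ to 3′ as deposited, on the strand of the gene, with the glycine codons of the run in capitals and positions on mouse build mm9. The Col15a1 probe lies at chr4:47283786-47283845, that of Col16a1 at chr4:129756457-129756516, that of Col25a1 at chr3:130270497-130270556 and that of Col14a1 at chr15:55347733-55347792, all on the plus strand.
Col15a1: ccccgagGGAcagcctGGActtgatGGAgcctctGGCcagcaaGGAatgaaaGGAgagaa
Col16a1: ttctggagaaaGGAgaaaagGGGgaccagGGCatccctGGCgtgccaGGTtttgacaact
Col25a1: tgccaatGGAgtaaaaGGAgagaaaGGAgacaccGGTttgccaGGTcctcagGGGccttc
Col14a1: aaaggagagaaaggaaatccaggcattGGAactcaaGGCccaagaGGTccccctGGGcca

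Of these, the Col15a1 and Col16a1 probes gave signal well above background on 30 of 30 arrays, the Col25a1 probe on 27 and the Col14a1 probe on 13. Other probes sit at the end of the coding sequence, as do those of a type I chain and a type VI chain whose levels are given below. The coding part of these probes is printed with the stop codon in capitals: 44 of 60 bases for Col1a2, at chr6:4490619-4490678 on the plus strand, and 33 of 60 bases for Col6a2, at chr10:76058931-76058990 on the minus strand.
Col1a2: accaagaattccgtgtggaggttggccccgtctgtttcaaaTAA
Col6a2: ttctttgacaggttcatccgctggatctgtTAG

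A probe counted as detected on an array when the scanner software called its signal well above background. Among the 63 collagen probes, 18 (28.6%) were detected on all 30 arrays, 24 (38.1%) on some and 21 (33.3%) on none. Of all 55681 probes 39.5% were detected on all arrays, 36.6% on some and 23.9% on none. The 18 probes stood for 16 genes: the fibrillar Col1a2 and Col11a2, the basement membrane chains Col4a2, Col4a4 and Col4a6, Col6a2 of the beaded filaments, Col7a1 of anchoring fibrils, Col15a1, the transmembrane Col23a1 and Col25a1, and the FACIT genes Col9a1, Col9a2, Col16a1, Col19a1, Col20a1 and Col22a1. By class, 8 of 16 FACIT probes were detected on all arrays, 3 of 9 basement membrane probes, 2 of 11 fibrillar probes, 2 of 9 transmembrane probes and 0 of 5 short chain probes (types VIII and X, of endothelium and growing cartilage).

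For 9 genes no probe was detected on any array: Col2a1 and Col11a1 of cartilage, Col5a2, the partner of Col5a1 in type V fibrils, Col4a5, Col8a1, Col9a3, Col12a1, Col17a1 and Col28a1. Different probes of a gene disagreed. Each of Col4a4, Col4a6, Col16a1, Col19a1 and Col25a1 had a probe detected on 30 arrays and another detected on 0. The undetected collagen probes had a median GC content of 35%, against 45% in those detected on all arrays; over all probes the same medians were 38.3% and 45%. Absence of signal from a probe therefore does not show that the gene was silent.

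**Figure D1:**
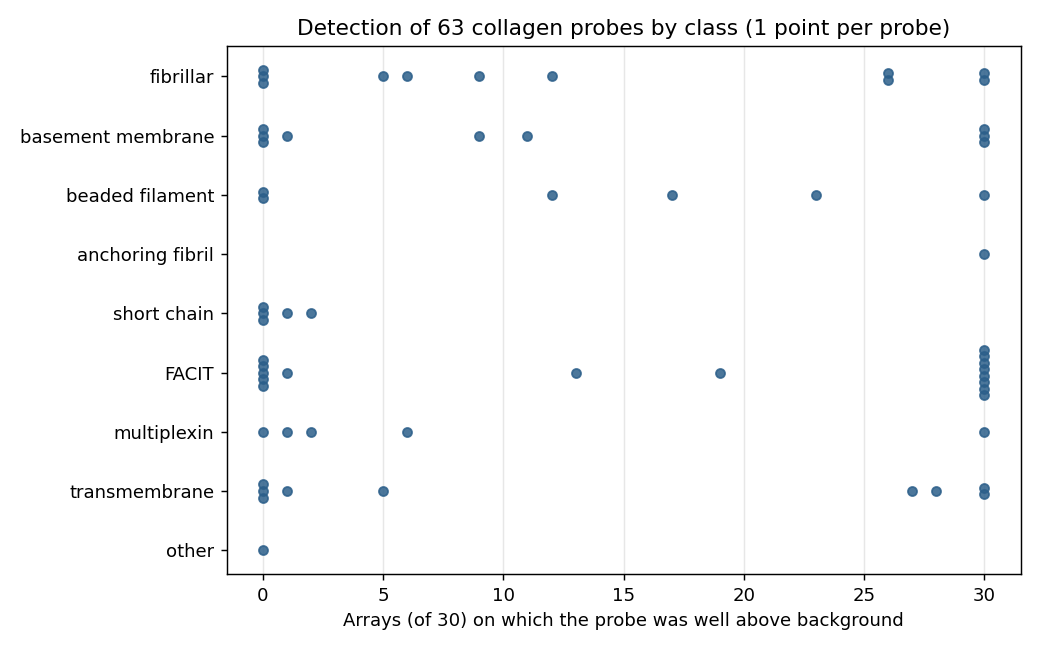
Number of arrays, of 30, on which each of the 63 collagen probes was well above background, by collagen class, with 1 point per probe. FACIT probes make up 8 of the 18 points at 30 arrays, and every class but the anchoring fibril has points at 0.

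The number of collagen probes detected per fibre ran between 21 and 33, with a median of 26. MCU fibres had 24 to 26 at day 14 and 23 to 31 at day 7, and WT fibres had 26 to 32 at day 14 and 24 to 33 at day 7. For shMCU fibres the counts were 22 to 28 at day 14 and 21 to 26 at day 7, and for shLuc fibres 26 to 28 at day 14 and 24 to 29 at day 7. The ranges of a pair touched or overlapped at each day. Over all probes the share detected also varied, between 49.4% and 59.5%, with group medians of 52.9% in MCU and 58.2% in WT fibres at day 14, 57.3% in MCU and 57.0% in WT fibres at day 7, 53.1% in shMCU and 51.6% in shLuc fibres at day 14, and 51.6% in shMCU and 53.6% in shLuc fibres at day 7. The part of this share in the collagen counts was not tested. WT fibre 3 of day 7 had the most collagen probes (33, for 27 genes) and a share of 58.3% over all probes.

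**Figure D2:**
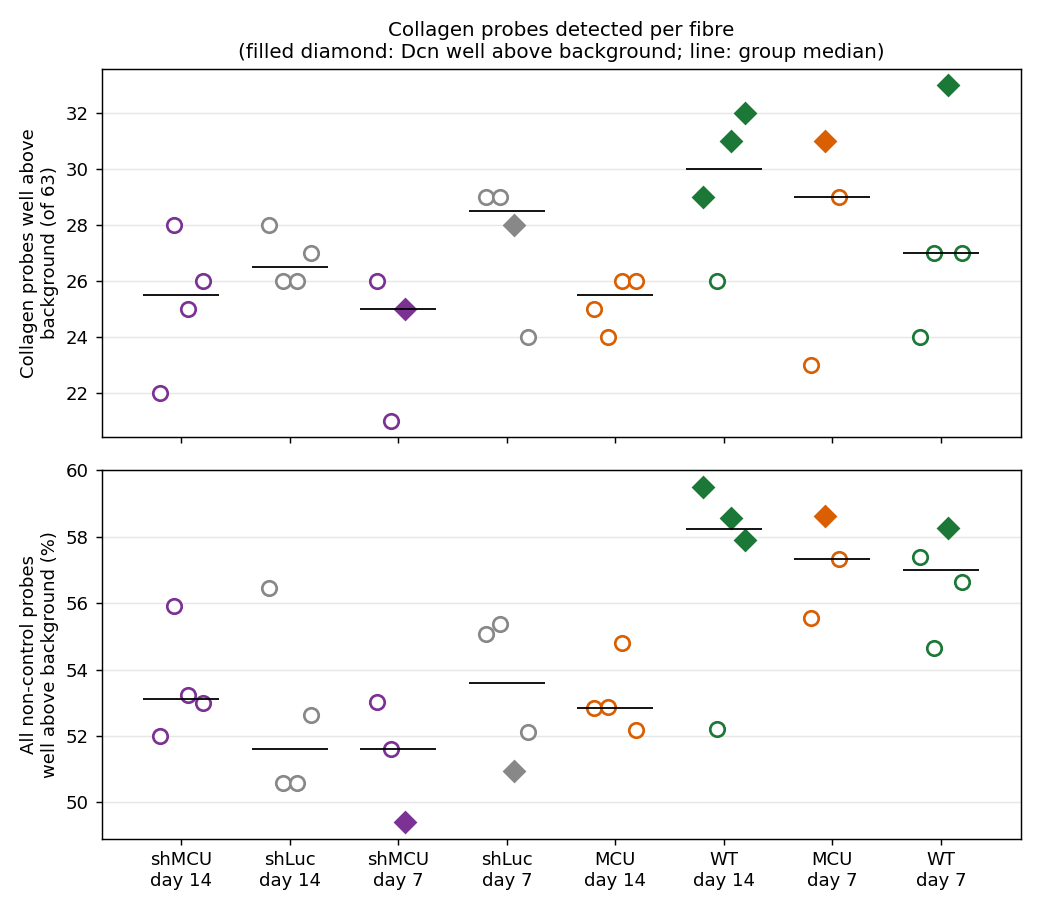
Collagen probes well above background in each fibre (top, count of 63) and all probes well above background on the same array (bottom, percent), by group, with the group median as a line. Filled diamonds mark the 7 fibres in which the fibroblast marker Dcn was detected; WT fibre 3 of day 7, at 33 collagen probes, lies highest.

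Levels are given as log2 intensity relative to the 75th percentile of the same array, which lay between 82.5 and 135.9 intensity units; a level of 1 is 1 log2 unit above that percentile. Levels of different probes are not comparable with each other. Each value below is 1 fibre, in the order of the fibre numbers, and the number of arrays limits the precision.

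Type I collagen, the main fibrillar collagen of muscle connective tissue, is made of chains from Col1a1 and Col1a2. The Col1a2 probe was detected in all 30 fibres. It stood at 0.61, 0.12, 0.82 and 1.13 in MCU fibres of day 14, against 1.01, 0.66, 1.91 and 2.33 in WT fibres of day 14. At day 7 it stood at 0.83, 1.37 and 1.35 in MCU fibres, against 1.10, 0.91, 2.94 and 1.28 in WT fibres. The highest levels were in WT fibres, but the groups overlapped at both days. In shMCU fibres it stood at 1.57, 1.11, 1.18 and 0.69 at day 14, against 0.59, 0.62, 1.10 and 0.79 in shLuc fibres. The day 7 values were 1.45, 1.86 and 2.23 in shMCU and 0.46, 0.79, 1.80 and 0.73 in shLuc fibres. Here too the groups overlapped, with 1 shLuc fibre of day 7 among the shMCU values.

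The Col1a1 probe (chr11:94813115-94813174, plus strand, mm9) was detected in 6 fibres alone. In MCU fibres of day 14 it was detected in 0 of 4, with levels between -5.12 and -5.01, against -2.74, -4.11, -1.84 and -1.55 in WT fibres of day 14, where only the second was undetected. At day 7 it was detected in MCU fibre 2 (-2.71; the others at -5.34 and -4.31), and in WT fibre 3 (0.33; the others between -5.27 and -3.12). No shMCU fibre was called, at -3.92, -4.87, -3.86 and -3.24 at day 14 and -5.16, -4.97 and -2.51 at day 7. Among shLuc fibres it was called in fibre 3 of day 7 (-1.05), the others of both days lying between -5.45 and -4.05. Detection was thus in 1 fibre each of 3 groups and in 3 of 4 WT fibres of day 14.

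Type III collagen is a trimer of Col3a1 chains and lies with type I in the endomysium. Col3a1 was detected in 26 fibres. Its levels were -2.43, -2.44, -1.24 and -1.94 in MCU fibres of day 14, against -1.59, -1.61, 0.02 and 0.70 in WT fibres, and -2.14, -0.70 and -2.42 in MCU fibres of day 7, against -0.90, -2.00, 0.55 and -1.60 in WT fibres. MCU and WT fibres overlapped at both days. In shMCU fibres they were -2.52, -3.65, -2.09 and -0.90 at day 14, against -2.48, -1.67, -2.18 and -2.64 in shLuc fibres. At day 7 they were -0.72, -1.67 and -0.31 in shMCU fibres, against -1.31, -2.88, 1.52 and -2.60 in shLuc fibres, so that 1 shLuc fibre was the highest of all 30. Col3a1 was not detected in 1 shMCU fibre and 3 shLuc fibres. Col5a1, a chain of type V that limits the width of fibrils, was detected in 26 fibres, at -3.47 to -0.71. Col11a2, of type XI, was detected in all fibres, at -1.25 to 0.03.

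The common basement membrane network is built of Col4a1 and Col4a2 chains. Col4a2 was detected in all fibres, and MCU and WT fibres, like shMCU and shLuc fibres, overlapped at both days. It stood at -0.54, -1.37, -1.15 and -0.86 in MCU fibres of day 14, against -0.99, -0.95, -0.90 and -0.80 in WT fibres, and at -0.26, -0.60, 0.19 and -0.78 in shMCU fibres of day 14, against -0.40, -0.87, -1.10 and -0.99 in shLuc fibres. At day 7 its ranges were -1.30 to -1.07 in MCU, -1.60 to 0.24 in WT, -1.57 to -0.32 in shMCU and -0.88 to -0.46 in shLuc fibres. Col4a1 was detected in 11 fibres. These were MCU fibre 3 of day 7 (-1.99), WT fibres 1, 3 and 4 of day 14 (-1.76, -1.05 and -1.03), WT fibre 3 of day 7 (-0.48), shMCU fibre 3 of day 14 (0.37), shMCU fibre 3 of day 7 (-1.08) and all 4 shLuc fibres of day 7 (-2.44, -3.05, -2.19 and -2.29). The other 19 levels lay between -5.15 and -2.74. Col4a4, which with Col4a3 and Col4a5 forms the network of kidney and lung, was detected in every fibre, and its values are given with the comparisons. Col4a6 was detected in all fibres, at -2.48 to -1.27, and Col4a3 in 1.

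Type VI filaments join the basement membrane to the interstitial matrix, and mutations of their chains cause muscular dystrophies in humans. Col6a2 was detected in all fibres. Its levels were -0.25, 0.32, 0.03 and 0.70 in MCU fibres of day 14, against 0.08, 0.35, 0.94 and 1.26 in WT fibres, and -0.09, 0.08 and 0.03 in MCU fibres of day 7, against -0.26, -0.07, 0.80 and -0.06 in WT fibres. In shMCU fibres they were -0.20, -0.37, -0.13 and 0.50 at day 14, against 0.20, 0.17, 0.16 and 0.09 in shLuc fibres, and 0.95, 0.88 and 0.65 at day 7, against 0.66, 0.74, 0.70 and 0.69 in shLuc fibres. The shLuc fibres lay close together within each day, and all pairs overlapped. Col6a1 was detected in 12 fibres, at least 1 in each group, with levels between -2.55 and 0.01 where detected. Its highest level was in WT fibre 4 of day 14. The chains Col6a4 and Col6a6 were detected in 23 and 17 fibres.

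Col7a1, the chain of the anchoring fibrils of skin, was detected in all fibres (chr9:108886861-108886920, plus strand, mm9). It stood at 3.74, 3.52, 3.33 and 3.39 in MCU fibres of day 14, against 2.63, 3.44, 2.79 and 3.18 in WT fibres, and at 3.25, 3.07 and 2.88 in MCU fibres of day 7, against 2.85, 3.45, 3.07 and 3.14 in WT fibres. In shMCU fibres it stood at 2.99, 2.73, 2.49 and 3.22 at day 14, against 3.04, 3.25, 2.85 and 2.92 in shLuc fibres, and at 3.13, 3.22 and 2.74 at day 7, against 3.36, 3.05, 4.20 and 2.97 in shLuc fibres. All pairs overlapped, and the highest fibre was again shLuc fibre 3 of day 7. The labelling kept no strand, so signal of an overlapping gene on the other strand cannot be told apart from that of the collagen named.

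Col22a1, of the muscle-tendon junction, was detected in all fibres (chr15:71628906-71628965, minus strand, mm9). Levels were 2.12, 1.96, 1.36 and 2.06 in MCU fibres of day 14, against 0.46, 1.26, -0.40 and 0.51 in WT fibres, and here the groups did not overlap. At day 7 they were 0.69, 0.79 and 1.23 in MCU fibres, against 0.82, 1.14, 1.03 and 0.85 in WT fibres, and overlapped. In shMCU fibres they were 1.68, 1.57, -0.03 and 1.82 at day 14, against 0.52, 0.57, -0.08 and 0.89 in shLuc fibres, and 1.82, 1.86 and 0.46 at day 7, against 2.10, 1.65, 1.90 and 1.73 in shLuc fibres. In both shMCU groups 1 fibre lay far below the others. The range over all fibres was -0.40 to 2.12.

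The remaining collagens that were detected in every fibre included Col15a1, of the outer basement membrane zone, at -2.13 to -0.90, and Col25a1 at -1.60 to -0.01 with its best detected probe. Among the FACIT genes, Col9a1 ran over -2.51 to -0.02, Col9a2 over -0.31 to 0.58, Col19a1 over -2.39 to -0.80 and Col20a1 over -1.60 to 0.03. The transmembrane Col23a1 ran over -1.95 to -0.14. Col5a3 was detected in 12 fibres, Col24a1 in 9, Col13a1, a transmembrane collagen of the neuromuscular junction, in 5, Col8a2 in 2, and Col10a1 and Col18a1 in 1 each.

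**Figure D3:**
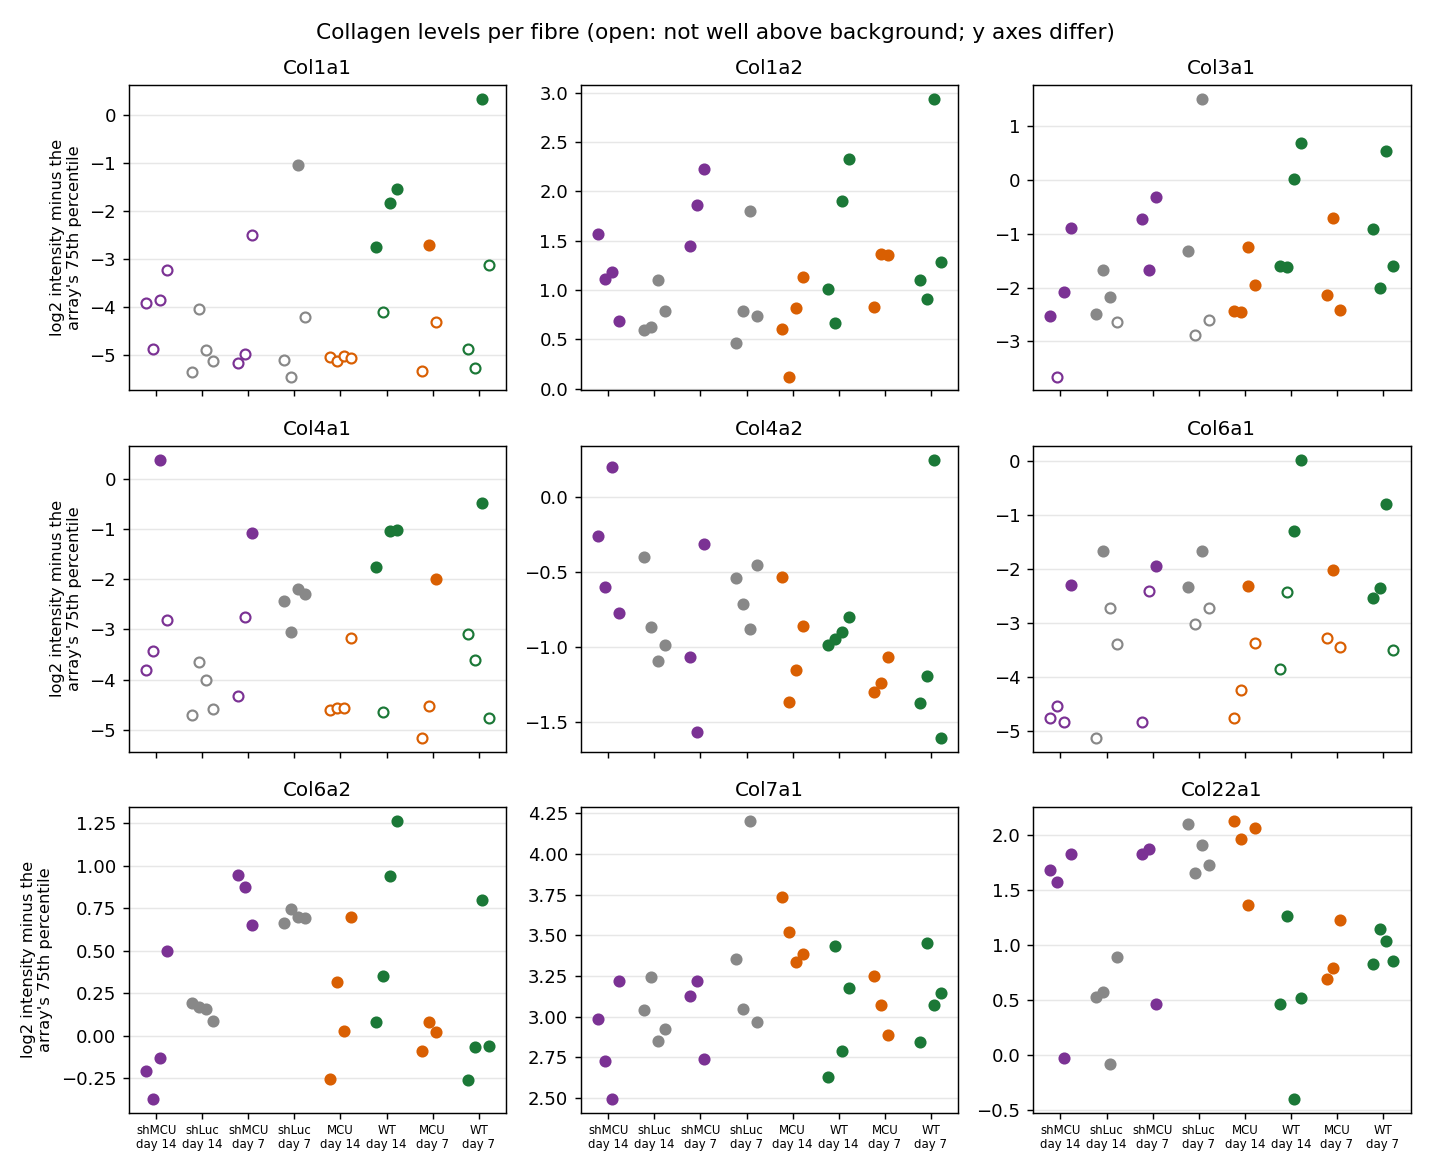
Levels of 9 collagen genes in each of the 30 fibres, as log2 intensity minus the 75th percentile of the array, by group; open points were not well above background, and the vertical axes differ. Col1a1 has 6 filled points and Col4a1 has 11, while Col1a2, Col4a2, Col6a2, Col7a1 and Col22a1 are filled in all 30 fibres.

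The spread between fibres of a group was a median of 0.335 (SD of log2 levels, group means removed) over the 18 collagen probes detected on all arrays, against 0.261 over all 21986 probes detected on all arrays. Col23a1 lay highest of the 18, at the 97.1th percentile of that spread. Col1a2 lay at the 96.6th, Col22a1 at the 95.6th and Col9a1 at the 95.5th, whereas Col9a2 lay at the 11.3th. Across the 30 fibres, with group means removed, Col1a2 and Col3a1 had a Pearson r of 0.61 and a Spearman rho of 0.54, and r was 0.44 without the 2 fibres farthest from the median of Col1a2. Col3a1 and Sparc, a collagen-binding matrix protein detected in all fibres, had r of 0.51 and rho of 0.42, and r was 0.32 without 2 such fibres. These fibres share their slides and depth in groups, and the correlations are descriptions. Likeness of Col1a1, Col4a1 and Col6a1 was not computed, because each was detected on too few arrays.

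Markers of the cells that make matrix were set beside these levels, as values and with no test. The fast fibre markers Myh4, Myh1, Ckm, Acta1, Tnnt3 and Atp2a1 were detected on all 30 arrays. Of 12 markers of fibroblasts and fibro-adipogenic progenitors, Pi16 and Ly6a were detected in all fibres, Fbln1 in 29, Cd34 in 24, Thy1 in 20 and Fbln2 in 18. Dcn, the small proteoglycan decorin that binds type I fibrils, was detected in 7, Fap in 2, Lum and Postn in 1 each, and Pdgfra and Dpt, which define these cells, in 0. The summed level of the list (in linear units, 1 being the array's 75th percentile) ranged over 3.64 to 4.13 in MCU and 3.27 to 10.6 in WT fibres of day 14, and over 3.60 to 5.91 in MCU and 3.33 to 13.5 in WT fibres of day 7. It ranged over 2.86 to 3.72 in shMCU and 2.40 to 3.27 in shLuc fibres of day 14, and over 2.72 to 6.17 in shMCU and 2.29 to 5.66 in shLuc fibres of day 7.

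The 7 fibres with Dcn detected were MCU fibre 2 of day 7 (0.17), shMCU fibre 3 of day 7 (1.60), shLuc fibre 3 of day 7 (0.15), WT fibre 3 of day 7 (2.58) and WT fibres 1, 3 and 4 of day 14 (-1.16, 1.09 and 2.55). All 6 fibres in which Col1a1 was detected were among these 7 (6 of 6 Col1a1 fibres, and 85.7% of the Dcn fibres). The 7 highest Col1a1 levels of the 30 were in the same 7 fibres, as were the 6 highest Col3a1 levels. This overlap was noticed after the values were seen, and Dcn was picked from the marker list for it. Col4a1 was detected in 6 of the 7 Dcn fibres and in 5 others, and Col6a1 in 6 of the 7 and in 6 others.

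Detection of other matrix and vessel genes overlapped with that of these chains to differing degrees. Nid1, the basement membrane linker nidogen, was detected in 8 fibres, which held all 6 Col1a1 fibres and 7 of the 11 Col4a1 fibres. Pcolce, the enhancer of procollagen cleavage, was detected in 13 fibres, again with all 6 Col1a1 fibres, whereas Lox and Lamb1 were each detected in 3 of the 6 and Timp1 in 2. Pecam1 of endothelium was detected in 9 fibres, 7 of them among the 11 with Col4a1 (63.6% of the Col4a1 fibres and 77.8% of the Pecam1 fibres). The shMCU fibre 3 of day 14, in which Col4a1 was highest of all 30 at 0.37, had 7 of 7 endothelial markers detected, where most fibres had 2 to 4; its Dcn was not detected. WT fibre 3 of day 7 had 9 of 12 fibroblast markers, and its Col1a1 (0.33) and Col1a2 (2.94) were the highest of all 30. The part of adhering cells in these levels was not tested.

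The other marker lists are given by the arrays on which their members were detected. Itgam, Csf1r, Cd14, Ptprc and Cd68, of 7 macrophage and leukocyte markers, and Kdr, of the endothelial list, were detected in all fibres, with Itgam between 7.70 and 8.35 and Csf1r between 4.40 and 4.80. Whether adhering cells gave these signals was not tested. Kdr, between 3.11 and 3.96, made up most of the summed endothelial level, whose range was 12.6 to 13.8 in MCU and 13.2 to 14.0 in WT fibres of day 14, and 11.1 to 11.3 in MCU and 11.2 to 15.9 in WT fibres of day 7. It was 12.2 to 13.4 in shMCU and 13.2 to 14.5 in shLuc fibres of day 14, and 9.25 to 16.1 in shMCU and 11.9 to 13.5 in shLuc fibres of day 7. Of 5 satellite cell markers, Vcam1 was detected in 7 fibres, Pax7 in 1 and the others in 0. Among 6 tendon markers Thbs4 and Scx were detected in all fibres and Tnmd and Comp in 0; among 6 mural markers Des, Tagln and Cspg4 were detected in all fibres; and among 6 Schwann cell markers Sox10 and Mbp were.

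**Figure D4:**
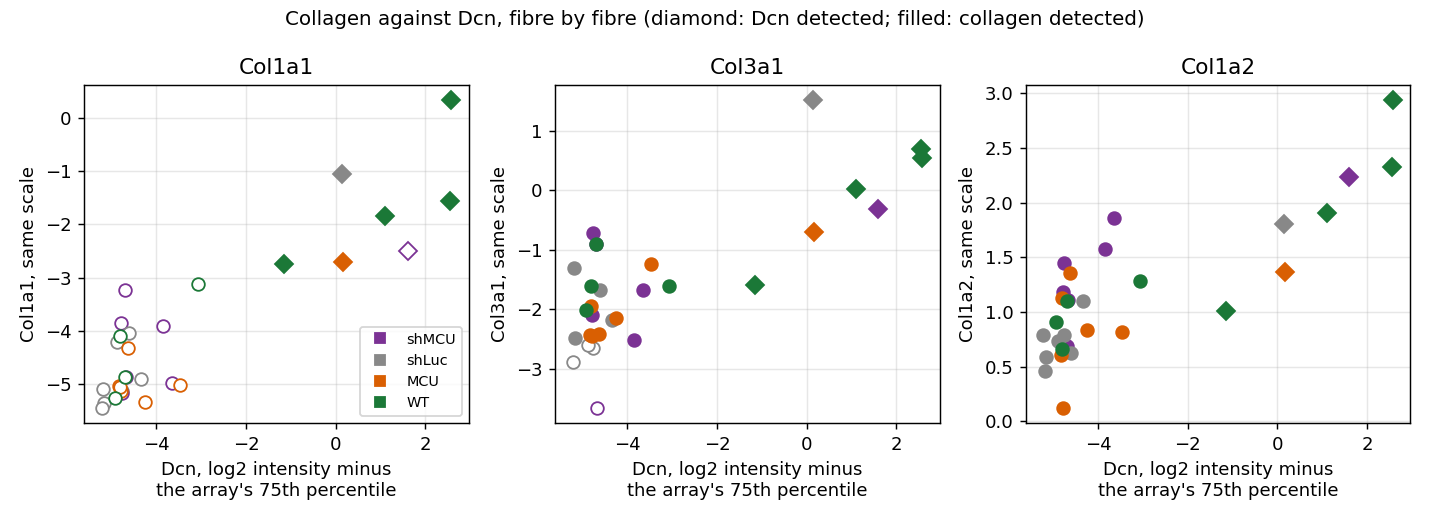
Levels of Col1a1, Col3a1 and Col1a2 against the level of Dcn in the 30 fibres, both as log2 intensity minus the 75th percentile of the array; diamonds mark detection of Dcn, filled points detection of the collagen, and colours the vector. The 7 diamonds hold the 7 highest Col1a1 levels and the 6 highest Col3a1 levels; Dcn is a marker chosen after the values were seen.

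Differences between groups were tested with limma over the 33163 probes detected on at least 3 arrays of a group, with Benjamini-Hochberg adjustment over all of them and a threshold of 0.05. Of the 63 collagen probes, 31 (26 genes) entered the test and 32 did not. For a probe that entered only through the group in which it was high, a difference was favoured in advance. The counts below are therefore descriptions of the tested probes. Each pair of groups of a day shared a slide. The Mcu probe, listed under its older name, averaged 6.36 ± 0.35 in MCU and 2.46 ± 0.27 in WT fibres of day 14, and -0.52 ± 1.10 in shMCU and 2.55 ± 0.22 in shLuc fibres of day 14 (SD, n = 4 each). At day 7 it averaged 3.27 ± 0.28 in MCU (n = 3) and 2.67 ± 0.20 in WT fibres (n = 4), and 0.49 ± 0.97 in shMCU (n = 3) and 2.57 ± 0.34 in shLuc fibres (n = 4).

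The first comparison sets MCU fibres against WT fibres that had no virus. Injection, virus and ZsGreen therefore differ together with raised MCU and cannot be told apart from it. Col16a1, a FACIT-like collagen of the basement membrane zone, rose in MCU fibres, and it alone passed: 1 of 31 collagen probes over both days, where 1.04% of all 33163 probes passed (0.79% higher and 0.25% lower in MCU fibres). The Col16a1 probe that passed (chr4:129776333-129776392, plus strand, mm9) stood at 1.38, 1.38, 1.52 and 1.56 in MCU fibres of day 14, against 0.84, 1.25, 1.00 and 1.28 in WT fibres, and at 1.30, 1.17 and 1.52 in MCU fibres of day 7, against 0.59, 1.07, 0.89 and 0.87 in WT fibres. All 7 MCU fibres were above every WT fibre of their day. The difference was 0.42 on the log2 scale (SE 0.10, limma adjusted p = 0.0474). Its adjusted p ran between 0.0114 and 0.499 over the alternatives, and it missed the threshold when any of 12 of 15 single fibres was left out, with differences between 0.37 and 0.46. The glycine-repeat probe of the same gene, printed above, differed by -0.06 (SE 0.15, adjusted p = 0.898); the difference between the probes was not tested.

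At single days no collagen probe passed in MCU against WT fibres. At day 14 the count was 0 of 31 (0.359% of all probes passed). There 11 of 31 had an unadjusted limma p under 0.05 (5 higher, 6 lower), against 11.3% of all probes. At day 7 the count was 0 of 31 (0.522%), with 2 at that unadjusted p, against 5.17% of all probes. For the day 14 difference minus the day 7 difference it was 0 of 31 (0.184%), with 1, against 3.60% of all probes. Col22a1 differed by 1.42 at day 14 (SE 0.36, limma adjusted p = 0.0837), and its mean was 1.88 ± 0.35 in MCU and 0.46 ± 0.68 in WT fibres (SD, n = 4 each). At day 7 the Col22a1 difference was -0.06 (SE 0.39), and the difference between days was 1.48 (SE 0.53, limma adjusted p = 0.964).

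Col1a1, Col1a2, Col3a1, Col4a1 and Col6a1, chosen after their values were seen, had lower means in MCU than in WT fibres, with wide errors. The differences of the 31 probes were of both signs, and Col4a6 (0.33, limma adjusted p = 0.328) and Col22a1 (0.68, 0.256) had higher means in MCU fibres. Over both days the log2 difference was -1.50 for Col4a1 (95% interval -2.92 to -0.09, limma adjusted p = 0.355), -1.08 for Col3a1 (-2.22 to 0.07, 0.419) and -0.59 for Col1a2 (-1.17 to -0.01, 0.379). The Col4a1 difference rests largely on undetected signals, with detection at day 7 in 1 of 3 MCU and 1 of 4 WT fibres. Col1a1 (limma adjusted p = 0.302) entered the test through WT fibres of day 14 alone, and Col6a1 (0.403) through WT fibres of day 7 alone. Each was detected most often there, which favoured a lower mean in MCU fibres in advance, so no size is given. None of these passed. At day 14 Col1a1 was detected in 0 of 4 MCU and 3 of 4 WT fibres. Col4a1 was likewise detected in 0 of 4 and 3 of 4, a ratio of at least 2.02-fold (limma adjusted p = 0.388). Such a ratio sets the mean of the detected group against the lowest signal that was well above background on the arrays of the other. In WT fibres of day 14, 3 of 4 fibres were among the 7 with Dcn, against 0 of 4 in MCU fibres. Lower levels than in WT were not particular to MCU fibres for type I collagen. In shLuc minus WT over both days, Col1a2 ran between -0.80 and -0.16 over the alternatives, and Col1a1 was lower too. Col5a1 went the other way, at 0.25 to 0.91. Group and slide cannot be told apart there.

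The 7 Dcn fibres hold the 7 highest Col1a1 and 6 highest Col3a1 levels, and 4 of the 8 WT fibres, so leaving them out takes away the highest values by choice. The differences without them, an alternative added after the values were seen, are a description and no test. The MCU minus WT difference over both days was then 0.0016 for Col1a2, 0.33 for Col4a1 and -0.59 for Col3a1. Among the MCU and WT fibres left, Col4a1 was detected only in MCU fibre 3 of day 7. Col1a1 was detected in none of them, so its difference is not given. In that fit WT of day 14 was 1 fibre, which was assumed to vary like the other groups. The median difference of the 31 probes in all fibres was -0.10, against -0.02 over all probes tested.

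The second comparison asks what silencing MCU did. Over both days 3 of 31 collagen probes passed (9.68%), where 13.4% of all probes did (7.39% higher and 6.01% lower in shMCU fibres). Col4a4 and the same Col16a1 probe rose in shMCU fibres, and Col27a1, a fibrillar collagen of cartilage, fell; Col27a1 entered the test through shLuc fibres of day 14 alone, the group in which it is high. The median difference of the 31 probes was 0.12, against 0.04 over all probes. At day 14 the count was 2 of 31 (3.59% of all probes passed) and at day 7 also 2 of 31 (12.5%). For day 14 minus day 7 it was 0 of 31 (3.9%), with 2 at an unadjusted p under 0.05, against 18.6% of all probes.

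Col4a4 (chr1:82447879-82447938, minus strand, mm9) stood at 0.51, 0.23, 0.38 and 0.74 in shMCU fibres of day 14, against -0.02, -0.04, -0.25 and -0.11 in shLuc fibres. At day 7 it stood at 0.71, 0.87 and 0.21 in shMCU fibres, against -0.19, 0.17, -0.53 and -0.02 in shLuc fibres. No shMCU value overlapped the shLuc values of its day. The difference was 0.65 over both days (SE 0.11, limma adjusted p = 0.000337), 0.74 at day 7 (adjusted p = 0.00329) and 0.57 at day 14 (adjusted p = 0.0257). The day 14 and day 7 calls were lost when only the groups compared were fitted, and the day 14 call also under scaling on the median and when any of 4 of 8 single fibres was left out. In MCU fibres Col4a4 ranged over 0.55 to 0.72 at day 14 and 0.31 to 0.38 at day 7, and in WT fibres over 0.53 to 0.71 and 0.05 to 0.44. Another Col4a4 probe was detected on 9 arrays and was not tested, and the last on 0.

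The Col16a1 probe stood at 1.12, 0.90, 0.92 and 0.98 in shMCU fibres of day 14, against 0.37, 0.65, 0.97 and 0.52 in shLuc fibres, which overlapped. At day 7 it stood at 0.98, 1.41 and 1.35 in shMCU fibres, against 0.58, 0.35, 0.77 and 0.42 in shLuc fibres, with no overlap. The difference was 0.53 over both days (SE 0.10, limma adjusted p = 0.00179) and 0.71 at day 7 (adjusted p = 0.00387); the day 7 call was lost when only the groups compared were fitted. At day 14 it was 0.35 (adjusted p = 0.179). The glycine-repeat probe of Col16a1 differed by 0.12 over both days (SE 0.15, adjusted p = 0.614).

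Col27a1 was detected in 5 fibres, 4 of them shLuc. It was detected in 0 of 7 shMCU fibres, at -4.42, -4.69, -4.82 and -4.93 at day 14 and -4.54, -3.81 and -4.53 at day 7. In shLuc fibres it stood at -0.89, -2.23, -2.31 and -3.26 at day 14, with the first 3 detected, and at -1.97, -3.20, -3.59 and -4.90 at day 7, with the first detected. Entry through shLuc fibres of day 14 favoured a lower mean of Col27a1 in shMCU fibres in advance, and its call is a description. It was lower in shMCU fibres at day 14 (limma adjusted p = 0.00869) and over both days (adjusted p = 0.00694), and no size is given. With undetected spots set to the lowest detected signal of the array, both calls were lost (limma adjusted p = 0.139 at day 14 and 0.228 over both days).

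The same 5 genes did not pass in the second comparison. Over both days shMCU minus shLuc was 0.63 for Col1a2 (95% interval 0.05 to 1.21, limma adjusted p = 0.135), 0.19 for Col3a1 (-0.96 to 1.33, 0.865), 0.31 for Col1a1 (-1.15 to 1.77, 0.816), 0.80 for Col4a1 (-0.62 to 2.21, 0.468) and -0.75 for Col6a1 (-1.99 to 0.49, 0.428). For Col1a1 and Col3a1 the sign turned when single fibres were left out. Col1a1 was detected in 0 of 7 shMCU and 1 of 8 shLuc fibres, so its difference is largely one of undetected signals. Col4a1 was detected in 1 of 4 shMCU and 0 of 4 shLuc fibres of day 14. At day 7 it was detected in 1 of 3 shMCU and 4 of 4 shLuc fibres. Of the Dcn fibres, 1 of 7 shMCU and 1 of 8 shLuc fibres entered this comparison.

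**Figure D5:**
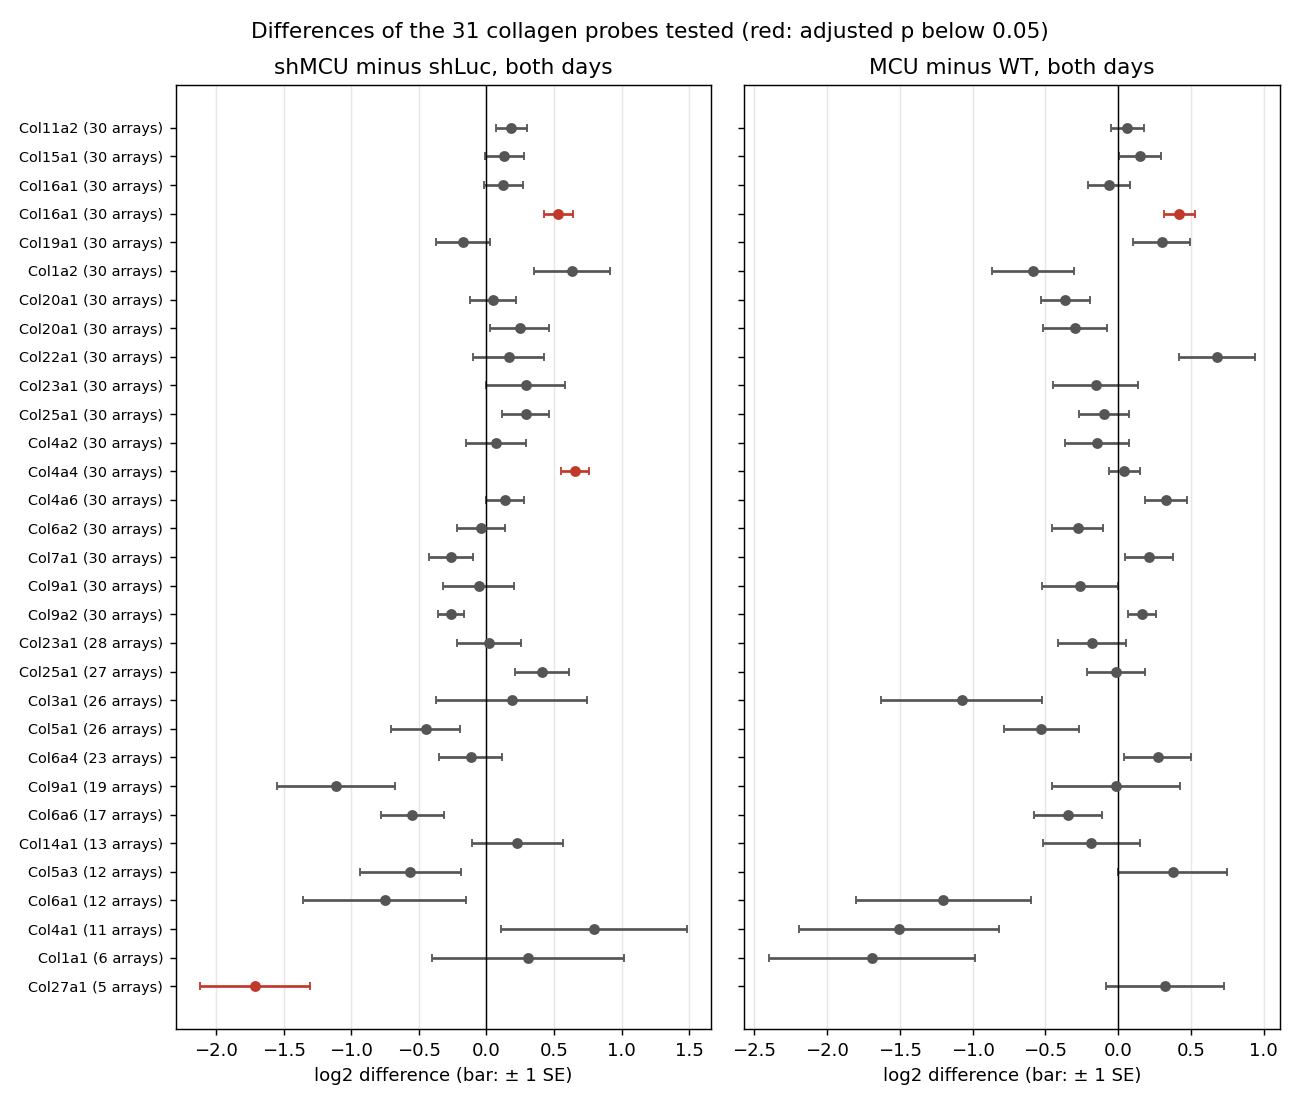
Differences of the 31 tested collagen probes, shMCU minus shLuc (left) and MCU minus WT (right), over both days, on the log2 scale with 1 SE, ordered by the number of arrays on which the probe was detected; genes with several tested probes appear once per probe. Points in red passed at an adjusted p below 0.05: Col16a1 and Col4a4 higher and Col27a1 lower in shMCU fibres, and Col16a1 higher in MCU fibres. Col27a1 entered the test only through shLuc fibres of day 14, where it is high, so its point is a description.

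The virus-treated control was set against wild type to show how far the 2 control groups differed. Of 31 collagen probes 6 passed (19.4%), where 26.4% of all probes did (9.95% higher and 16.5% lower in shLuc fibres). The 6 were 2 higher and 4 lower, but 3 higher and 1 lower under median scaling, 1 higher and 6 lower with the 75th percentile over probes detected on all arrays, and 3 higher and 2 lower under quantile normalization, so the balance of directions depends on the scaling. These fibres never shared a slide or a scan day, so group and slide cannot be told apart. In shLuc fibres Col4a4 (-0.56, limma adjusted p = 0.000263), Col16a1 (-0.40, 0.00503), Col25a1 with its glycine-repeat probe (-0.55, 0.0347) and Col14a1 (adjusted p = 0.0384) were lower than in WT fibres, and Col27a1 (adjusted p = 0.00104) and Col11a2 (0.33, 0.027) were higher. Col14a1 entered the test through WT fibres alone and Col27a1 through shLuc fibres of day 14 alone, in each case where it is high. This favoured a difference in advance, so no size is given. With single fibres left out, the call was lost in 11 of 16 cases for Col14a1, in 8 for Col25a1 and in 5 for Col11a2. The 3 genes that passed in shMCU against shLuc fibres were thus also among the 6, with the opposite sign; both comparisons use the same shLuc fibres, so this is not independent of the values above. Col14a1, a FACIT collagen bound to type I fibrils, was detected in 8 of 8 WT and 1 of 8 shLuc fibres.

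The machinery of collagen synthesis and the surrounding matrix were given by a list of 30 genes, of which 17 were detected in all fibres, 3 in none (Mmp2, Mmp14 and Nid2) and 25 were tested. In MCU against WT fibres over both days 1 rose and 1 fell, where 0.79% of all probes were higher and 0.25% lower, with a median of 0.12 over the list, against -0.02 over all probes. Serpinh1, the collagen chaperone, fell: it stood at -0.65, -0.26, -0.31 and -0.66 in MCU fibres of day 14, against -0.03, -0.35, 0.55 and 0.96 in WT fibres, and at -0.68, -0.59 and -0.17 in MCU fibres of day 7, against 0.97, -0.07, 1.13 and -0.13 in WT fibres. Its difference was -0.85 (SE 0.21, limma adjusted p = 0.0488). At neither day alone did a gene of the list pass as lower, and the alternative settings were not run on these genes. Timp1, an inhibitor of metalloproteinases, rose (limma adjusted p = 0.04), with detection at day 7 alone. It stood at 0.99, -1.15 and -3.90 in MCU fibres of day 7, of which the first 2 were detected, and was detected in 0 of 4 MCU fibres of day 14 and 0 of 8 WT fibres, so no fold is given.

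In shMCU against shLuc fibres 0 of the 25 rose and 3 fell over both days, where 7.39% of all probes were higher and 6.01% lower, and a share of 3 in 25 is near the 13.4% of all probes that passed. The differences had a median of -0.11 over the list, against 0.04 over all probes. Timp1 was detected in 1 of 7 shMCU and 8 of 8 shLuc fibres. Its levels were -4.92 to -2.42 in shMCU and -1.98 to 0.89 in shLuc fibres of day 14, and -4.78 to -3.21 in shMCU and -1.23 to -0.49 in shLuc fibres of day 7. It entered the test through shLuc fibres alone, where it is high, so its limma adjusted p of 0.000508 is a description and no size is given. Timp2 differed by -1.24 (adjusted p = 0.0383) and the laminin chain Lamc1 by -0.60 (adjusted p = 0.0391). The shLuc fibres were also higher than WT in Timp1 (adjusted p = 3.65e-06), the slide again not to be told apart. The enzymes that modify collagen chains did not pass in either comparison; Colgalt1 ran over 2.21 to 3.39, P4hb over 1.69 to 2.89 and Plod1 over 1.54 to 2.43 over all fibres, and all were detected throughout.

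The marker lists were counted in the same fits over both days, where 1.04% of all probes passed for MCU minus WT and 13.4% for shMCU minus shLuc. Of the fibroblast list 0 of 7 tested passed in either comparison, with medians of -0.56 in MCU minus WT and 0.10 in shMCU minus shLuc. Over all probes these medians were -0.02 and 0.04. In shLuc minus WT 2 of the 7 fell and 0 rose, with a median of -0.66, against -0.04 over all probes. There 26.4% of all probes passed, and group and slide cannot be told apart. For MCU minus WT and for shMCU minus shLuc, the endothelial list had 0 of 4 and the fast fibre list 0 of 6. For MCU minus WT, Des of the mural list passed (0.60), and 0 of 4 tendon, 0 of 7 macrophage and 0 of 4 Schwann cell markers did. For shMCU minus shLuc, Cspg4 of the mural list (0.93), Cd68 of the macrophage list (-2.11) and Thbs4 of the tendon list (-1.41) passed, and 0 of 4 Schwann cell markers did. Des, Cspg4, Cd68 and Thbs4 were detected in all fibres, and whether the fibre itself or other cells gave their signal was not tested. No satellite cell marker was detected often enough to be tested.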

How the data were processed

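Each array was deposited as 1-colour output of Agilent Feature Extraction 10.7.3.1, per the file headers, whose processed intensity is already background-subtracted. Its flags for controls, outliers and spots well above background were taken over. The deposited series matrix holds linear intensity; its column medians lay between 20.9 and 21.0, each column correlated at 0.998 or more with its own array, and its steps are not given in the sources used here. Per the labels, RNA of each fibre was amplified and labelled with random primers.

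Replicate spots were averaged as log2 values and scaled to the array's 75th percentile of probes that are not controls. A probe was detected when at least 0.5 of its spots were well above background, and tested when detected on at least 3 arrays of a group. All 30 arrays entered 1 limma 3.58.1 model with a mean for each of 8 groups in R 4.3.3 (22 residual degrees of freedom), with Benjamini-Hochberg adjusted 2-sided p-values. It was tested on simulated data for MCU against WT over both days (33163 probes): 13 of 50 changes of 0.5 were recovered, 36 of 50 of 1, 49 of 50 of 2 and 49 of 50 of 3, and 6 of 153 calls were false. Figures were drawn with matplotlib 3.10.9. Scaling, background correction, filters, samples fitted, replicate block and single fibres were varied.

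Collagens with a best probe detected on at least 15 arrays or a probe that passed are named with values, in every fibre where a result turns on them and otherwise as a range; Col1a1, Col4a1 and Col6a1 were added as partners of named chains. Of each list, the members that passed and those detected in all or few fibres are named, chosen after their values were seen. The members and lists were chosen with earlier results of these data known. Same-numbered fibres of a pair deviated together at r between -0.15 and 0.17, over 0.1 in 4 of 14 pairs, so numbers were not taken to pair fibres. No build annotation for mm9 was used here, so exons are not given. Fibres of a group correlated at 0.946 to 0.982, and none were taken as duplicates.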

Additional observations from a re-analysis of the deposited data

Results flagged for a closer look

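Across the levels of 24 collagen probes and the number of collagen probes detected, 150 sets of 4 fibres (1 group each) were examined, and 6 held a fibre whose gap to the next exceeded Dixon's 95% critical value of 0.829; chance flags about 1 set in 20. Col22a1 stood at -0.0326 in shMCU fibre 3 of day 14, the next at 1.57; this is the fibre with the highest Col4a1 and all endothelial markers detected. Col11a2 stood at -0.85 in shLuc fibre 2 of day 14, the next at -0.44. Col25a1 (best detected probe) stood at -0.17 in shLuc fibre 3 of day 14, the next at -0.83. Col4a4 stood at 0.53 in WT fibre 1 of day 14, the next at 0.69. Col27a1 stood at -2.82 in WT fibre 3 of day 7, the next at -5.06, and at -3.60 in WT fibre 2 of day 14, the next at -5.02; the second of these was not well above background.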

How the results depend on the processing

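Over the settings tried, single fibres left out aside, counts of collagen probes that passed stayed at 0 for MCU against WT at day 7 and for both comparisons of day 14 minus day 7, and moved for the others. MCU against WT over both days had 1 in all fibres and 0 under median scaling, without the filter on dim probes, with a fit of the compared groups alone, with each array's detected share added as a covariate, and without the 7 Dcn fibres (chosen after seeing the data). At day 14 it had 0, and 1 (Col22a1) under normexp background correction, with only probes detected on all arrays, and with the replicate block. The shMCU against shLuc count over both days was 3, of them 2 higher, and 5 under median scaling, of them 2 higher, which added Col9a2 and Col6a6 as lower; at day 7 it was 2, and 0 with only the groups compared; at day 14 it was 2, and 1 under median scaling, with only probes detected on all arrays, with dim spots at the array's lowest detected signal, and with only the groups compared. The shLuc against WT count was 6, and 3 with only probes detected on all arrays or the covariate. Other planned settings stayed within 1.5 times the count.

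With each fibre left out in turn, counts ran over 0 to 1 for MCU against WT over both days, 0 to 0 at day 7, 0 to 1 at day 14 and 0 to 0 for day 14 minus day 7; over 3 to 4 for shMCU against shLuc over both days, 2 to 3 at day 7, 1 to 3 at day 14 and 0 to 1 for day 14 minus day 7; and over 4 to 7 for shLuc against WT. The day 14 count of MCU against WT was 1 without WT fibre 2, and the shMCU interaction count was 1 without shMCU fibre 3 of day 14. The replicate block, whose numbers do not pair fibres, left the counts at 1 for MCU against WT and 3 for shMCU against shLuc over both days.

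Of the named differences, 8 values changed sign. For shMCU minus shLuc over both days Col3a1 became -0.0747 without shLuc fibre 2 of day 7, -0.0280 without shLuc fibre 4 of day 7 and -0.0468 without shMCU fibre 4 of day 14, and ran up to 0.657, while Col1a1 became -0.118 without shMCU fibre 3 of day 7 and ran up to 0.793 (both highest values without shLuc fibre 3 of day 7). For MCU minus WT without the 7 Dcn fibres, Col1a2 became 0.00162 over both days and 0.00673 at day 14. Col4a1, of these fibres then detected in MCU fibre 3 of day 7 alone, became 0.330 and 0.411. The cause was not tested. Over all 33163 probes the number that passed ran over 106 to 636 for MCU against WT over both days (345 as reported), 2 to 230 at day 14 (119), 103 to 208 at day 7 (173) and 15 to 99 for day 14 minus day 7 (61). It ran over 2139 to 5614 for shMCU against shLuc over both days (4444), 202 to 1364 at day 14 (1190), 1075 to 5158 at day 7 (4134) and 420 to 1385 for day 14 minus day 7 (1293), and over 3206 to 9619 for shLuc against WT (8757). The median of 26 detected collagen probes per fibre became 40 with the software's looser test of signal against background and 29.5 with the 99th percentile of negative controls as the limit. Scaling on the 75th percentile of probes detected on all arrays moved the median difference over all probes to 0.11 for shMCU minus shLuc and -0.12 for shLuc minus WT, and median scaling moved that of shLuc minus WT to 0.12. Probes near background, such as Col1a1, Col4a1 and Col27a1, are limited by signal over background.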
